A study of Homo sapiens with 2 samples.

Results

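DNA damage repair and checkpoint genes are the 45 genes that were chosen by name for their known part in homologous recombination, the Fanconi anemia pathway, mismatch repair, base excision repair, end joining and the damage checkpoint. The rule uses names alone and no measured value, although the genes were chosen with earlier results of these data known. All 45 were found among the 57351 gene symbols of the deposited table. Transcripts were measured by RNA-seq in 22Rv1, a castration-resistant human prostate cancer line. In 1 library the cells carried a short hairpin RNA that targets EIF3F (shEIF3F), and in the other they carried the control vector (shCON). EIF3F codes for a subunit of eIF3, a complex that helps the ribosome start translation. No further allele, agent or time is given for either group. With 1 library per group no difference below has a replicate check, and no error or p-value was computed. With 1 hairpin, its effects through EIF3F and through any other target cannot be told apart.

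Cells repair double-strand breaks by end joining, which ligates the ends directly, or by homologous recombination, which copies an intact sister and is used mostly in S and G2 phases. In homologous recombination the ends are resected, BRCA1 and BRCA2 complexes load a strand exchange recombinase, and its paralogs and motor proteins help it invade the sister. The Fanconi anemia pathway detects crosslinked strands at stalled forks, and its core complex attaches ubiquitin to the FANCI-FANCD2 pair. Mismatch repair corrects replication errors, base excision repair removes damaged bases, and the kinases ATM and ATR with their effectors CHEK2 and CHEK1 hold the cell cycle while damage persists. Prostate cancers carry inherited or acquired defects in several of these genes, which is why inhibitors of PARP1 are used in that disease.

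The values are TPM, abundances per unit of transcript length and per library, so that levels can be set beside each other between genes. TPM is a share of the library and does not hold read numbers, so depth is unknown. The listed values summed to 994055 in shEIF3F and 992454 in shCON. EIF3F stood at 17.01 TPM in shEIF3F and 991 TPM in shCON, 1.72% of the control level. The luminal prostate markers HOXB13 (44.4 TPM in shEIF3F, 105 TPM in shCON), KRT8 (347 and 301), KRT18 (336 and 173) and EPCAM (60.5 and 17.5) were present in both libraries, whereas KLK2 (2.50 and 32.6) and KLK3 (1.94 and 9.71) were low in shEIF3F. Markers of other cell types were scarce. Among leukocyte markers CD68 had 5.34 TPM in shEIF3F and 1.2 TPM in shCON, with CD14 at 0.41 and 0.08, PTPRC at 0.03 and 0.11 and CD3E at 0.03 and 0. The 4 endothelial markers summed to 0.05 TPM in shEIF3F and 0.01 TPM in shCON, all of it PECAM1, with CDH5, VWF and KDR listed at 0 in both. The 6 fibroblast markers summed to 27.2 TPM in shEIF3F and 40.9 TPM in shCON, most of it LUM (20.9 and 24.3) and DCN (4.86 and 12.9), with COL1A1 at 0.83 and 2.43, COL1A2 at 0.33 and 0.29, COL3A1 at 0.17 and 0.57 and PDGFRB at 0.12 and 0.43. The log2 ratio below is log2((shEIF3F TPM + 1) / (shCON TPM + 1)), so a negative value means lower in shEIF3F, and near 1 TPM it understates the fold. A gene was compared when its mean over the 2 libraries reached 1 TPM, and a log2 ratio of -1 or less, or of 1 or more, was counted as at least 2-fold lower or higher by a fixed rule of size.

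The promoter sequences of 6 of the genes are shown because they stand at the ends and the flat part of the response: FANCA, XRCC3 and CHEK2 had the lowest log2 ratios of the 45, PMS1 and PALB2 the highest among genes compared that had a promoter in the RefSeq table, and RAD51C came closest to 0 among the rest. Each runs 5′ to 3′ from 250 bases before to 50 bases after the RefSeq gene start, on the GRCh38.p14 assembly. Capitals mark matches to an E2F motif, spelled here in 4 ways, as TTCCCGC, or else as TTGGCGC, or again as TTCGCGC, or lastly as TTGCCGC, and searched on both strands. FANCA is read from chr16:89816598-89816897 on the minus strand, XRCC3 from chr14:103715402-103715701 on the minus strand and CHEK2 from chr22:28741771-28742070 on the minus strand. PMS1 is read from chr2:189784200-189784499 on the plus strand, PALB2 from chr16:23641261-23641560 on the minus strand and RAD51C from chr17:58692323-58692622 on the plus strand.
FANCA: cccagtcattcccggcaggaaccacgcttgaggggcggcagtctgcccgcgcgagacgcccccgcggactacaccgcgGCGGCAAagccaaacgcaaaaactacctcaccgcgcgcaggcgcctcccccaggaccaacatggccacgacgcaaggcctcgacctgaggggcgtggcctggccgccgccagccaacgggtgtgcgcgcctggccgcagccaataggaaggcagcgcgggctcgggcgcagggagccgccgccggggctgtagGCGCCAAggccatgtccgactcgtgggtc
XRCC3: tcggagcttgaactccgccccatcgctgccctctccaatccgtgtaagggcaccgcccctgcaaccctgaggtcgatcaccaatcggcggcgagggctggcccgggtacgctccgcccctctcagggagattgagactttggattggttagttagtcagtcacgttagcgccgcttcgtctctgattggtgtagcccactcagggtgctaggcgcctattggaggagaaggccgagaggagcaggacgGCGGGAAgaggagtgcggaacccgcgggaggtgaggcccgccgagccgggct
CHEK2: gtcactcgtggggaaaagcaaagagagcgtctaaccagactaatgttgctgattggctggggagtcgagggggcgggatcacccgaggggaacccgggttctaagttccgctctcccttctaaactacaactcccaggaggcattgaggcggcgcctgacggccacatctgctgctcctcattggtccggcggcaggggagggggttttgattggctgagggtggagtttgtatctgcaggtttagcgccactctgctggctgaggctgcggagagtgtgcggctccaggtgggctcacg
PMS1: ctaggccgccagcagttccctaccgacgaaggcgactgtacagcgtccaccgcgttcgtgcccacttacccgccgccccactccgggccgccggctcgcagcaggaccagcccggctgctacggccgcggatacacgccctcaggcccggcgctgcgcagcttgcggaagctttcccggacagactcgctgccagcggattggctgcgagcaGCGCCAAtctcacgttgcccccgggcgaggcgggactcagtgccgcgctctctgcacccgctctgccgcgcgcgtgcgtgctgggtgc
PALB2: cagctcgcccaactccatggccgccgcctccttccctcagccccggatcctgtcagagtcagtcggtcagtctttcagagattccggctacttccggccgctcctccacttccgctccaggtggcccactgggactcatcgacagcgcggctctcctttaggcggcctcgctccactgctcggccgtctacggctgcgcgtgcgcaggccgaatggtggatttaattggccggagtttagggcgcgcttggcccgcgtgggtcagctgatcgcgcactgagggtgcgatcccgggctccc
RAD51C: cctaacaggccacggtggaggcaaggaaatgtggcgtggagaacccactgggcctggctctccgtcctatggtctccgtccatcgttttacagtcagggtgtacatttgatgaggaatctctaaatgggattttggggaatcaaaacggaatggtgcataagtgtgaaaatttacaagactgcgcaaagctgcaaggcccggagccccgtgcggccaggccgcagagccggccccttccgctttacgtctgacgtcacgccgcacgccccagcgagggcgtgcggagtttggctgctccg
The FANCA window holds 2 E2F matches, and the XRCC3 window holds 1 that lies across the gene start. The CHEK2 window holds none, and neither do those of PALB2 and RAD51C. The PMS1 window holds 1, in a gene whose transcript was not lower in shEIF3F. No match says only that these letters are not in this window.

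Transcripts of repair and checkpoint genes were lower in shEIF3F for almost the whole set. Of the 45 genes, 43 had a lower TPM in shEIF3F and 2 had a higher one, PMS1 and LIG4. Most other genes also ran in this direction. The log2 ratio was negative in 8695 of all 13311 genes compared, and in 36 of the 37 compared from the set. The median level of the 45 genes was 1.71 TPM in shEIF3F and 8.18 TPM in shCON. Their summed level was 530.0 TPM in shEIF3F and 1169 TPM in shCON. The number at 10 TPM or more was 6 in shEIF3F and 21 in shCON, and the number at 1 TPM or more was 32 in shEIF3F and 39 in shCON. RNA from bulk cells does not tell less RNA per cell apart from fewer cells in the phase of the cycle that uses these genes.

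**Figure D1:**
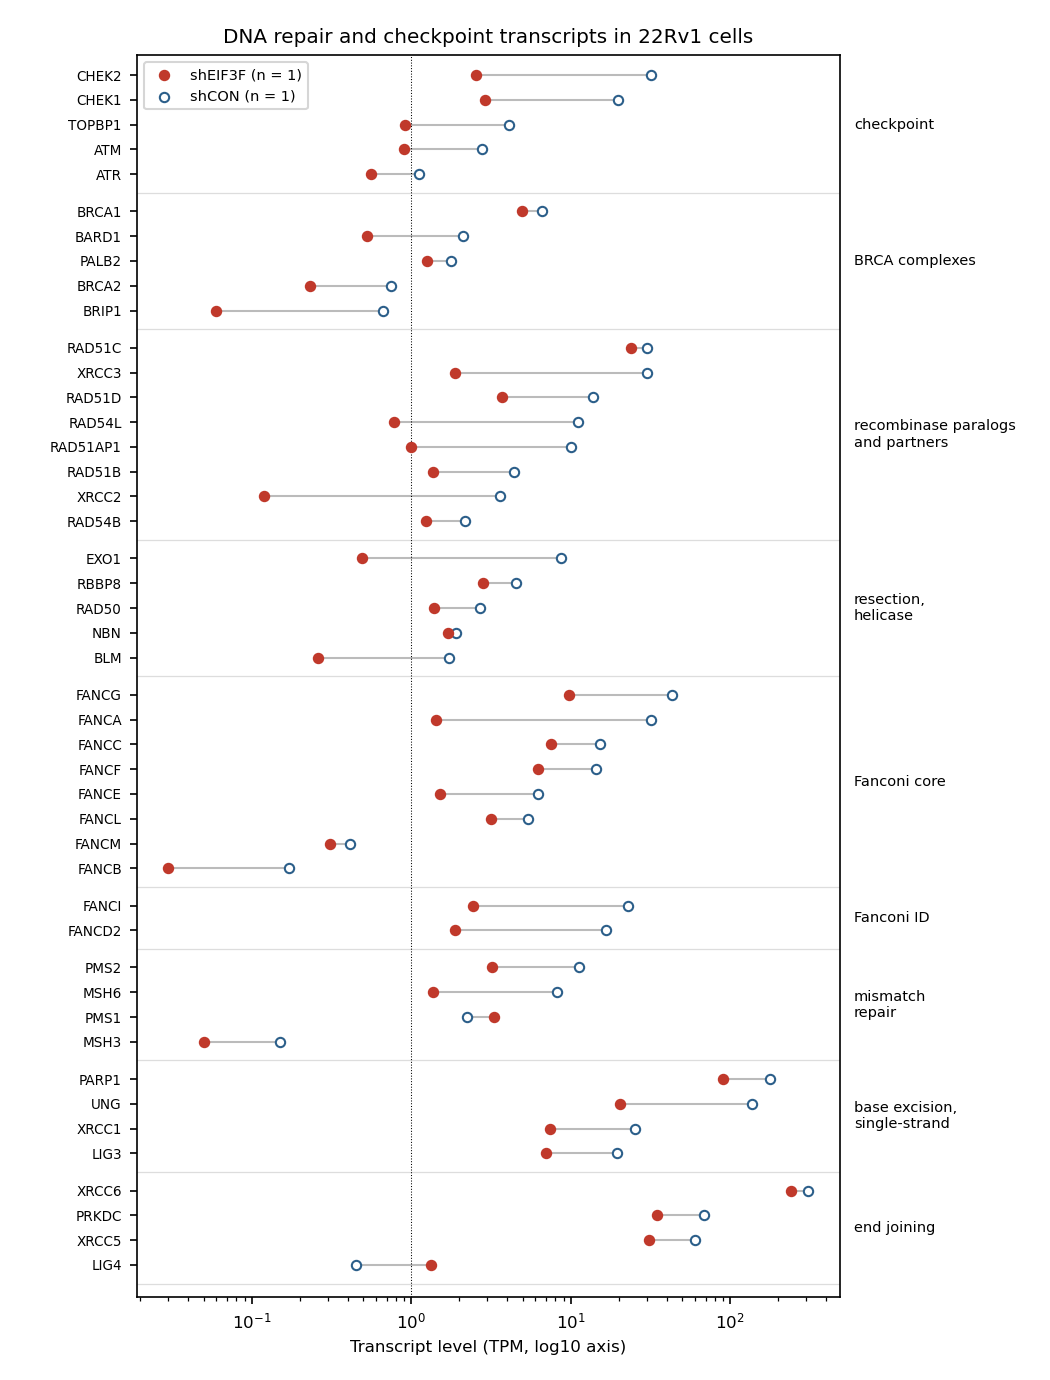
Transcript level of each of the 45 genes in TPM on a log10 axis, ordered by role, with filled red points for shEIF3F and open blue points for shCON (1 library each) and a dotted line at 1 TPM. Red points lie left of blue ones in 43 genes and right of them in PMS1 and LIG4.

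A mean of 1 TPM or more was reached by 37 of the 45 genes, and the other 8 (ATR, BRCA2, BRIP1, FANCB, FANCM, BLM, MSH3 and LIG4) were too low to be compared. Of the 37, 22 (59.5%) were at least 2-fold lower in shEIF3F, 15 were within 2-fold and 0 were at least 2-fold higher. Among all 13311 genes compared, 25.6% were at least 2-fold lower and 8.44% were 2-fold higher or more. The median log2 ratio was -1.36 for the 37 genes and -0.36 for all genes. After centring, which set the median of all genes to 0, 19 of the 37 (51.4%) were at least 2-fold lower and 0 at least 2-fold higher, against 16.0% lower and 14.7% higher among all genes. Ratios ran lower for transcripts rich in G and C, with a Spearman correlation across genes of -0.44 for the 37 and -0.32 for 13196 genes, where genes are not independent replicates and share both libraries. With that trend removed 18 of the 37 (48.6%) were at least 2-fold lower and 0 higher, against 13.9% lower and 13.3% higher among all genes. The part of GC content in the difference was not tested further.

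**Figure D2:**
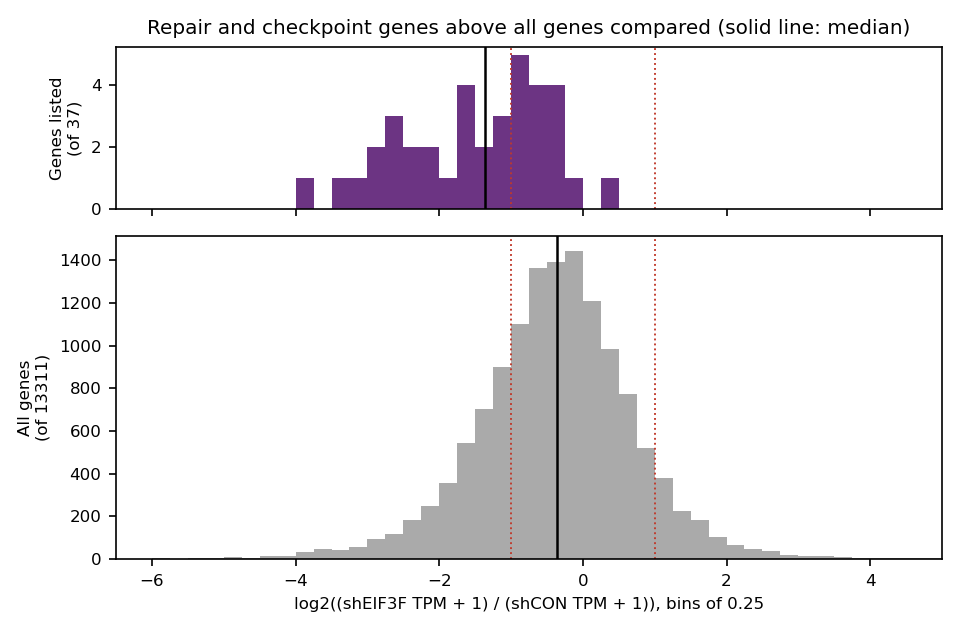
Number of genes by log2 ratio in bins of 0.25, for the 37 repair and checkpoint genes compared (above) and for all 13311 genes compared (below). Solid lines mark the medians, -1.36 and -0.36, and dotted lines the 2-fold limits.

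The response was uneven within the set. Each role group count below stands beside the 25.6% of all genes compared that were at least 2-fold lower. Of all genes compared, the 10% with the lowest log2 ratios held 13 of the 37, and the lowest 5% held 10. In contrast, 6 of the 37 (XRCC6, BRCA1, RAD51C, PALB2, NBN and PMS1) had log2 ratios above the median of all genes. By level, at a mean of 5 to 20 TPM 13 of 15 genes were at least 2-fold lower (median log2 ratio -2.42), against 7 of 15 under 5 TPM (-0.996) and 2 of 7 at 20 TPM or more (-0.96). Among all genes compared at the same levels 27.0% were lower at 5 to 20 TPM, 20.1% under 5 TPM and 31.0% at 20 TPM or more, and the pseudocount shrinks ratios most at low levels. The 4 most abundant of the 45 genes (XRCC6, PARP1 and PRKDC, with XRCC5 in shEIF3F and UNG in shCON) made up 74.8% of the summed level in shEIF3F and 59.0% in shCON.

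**Figure D3:**
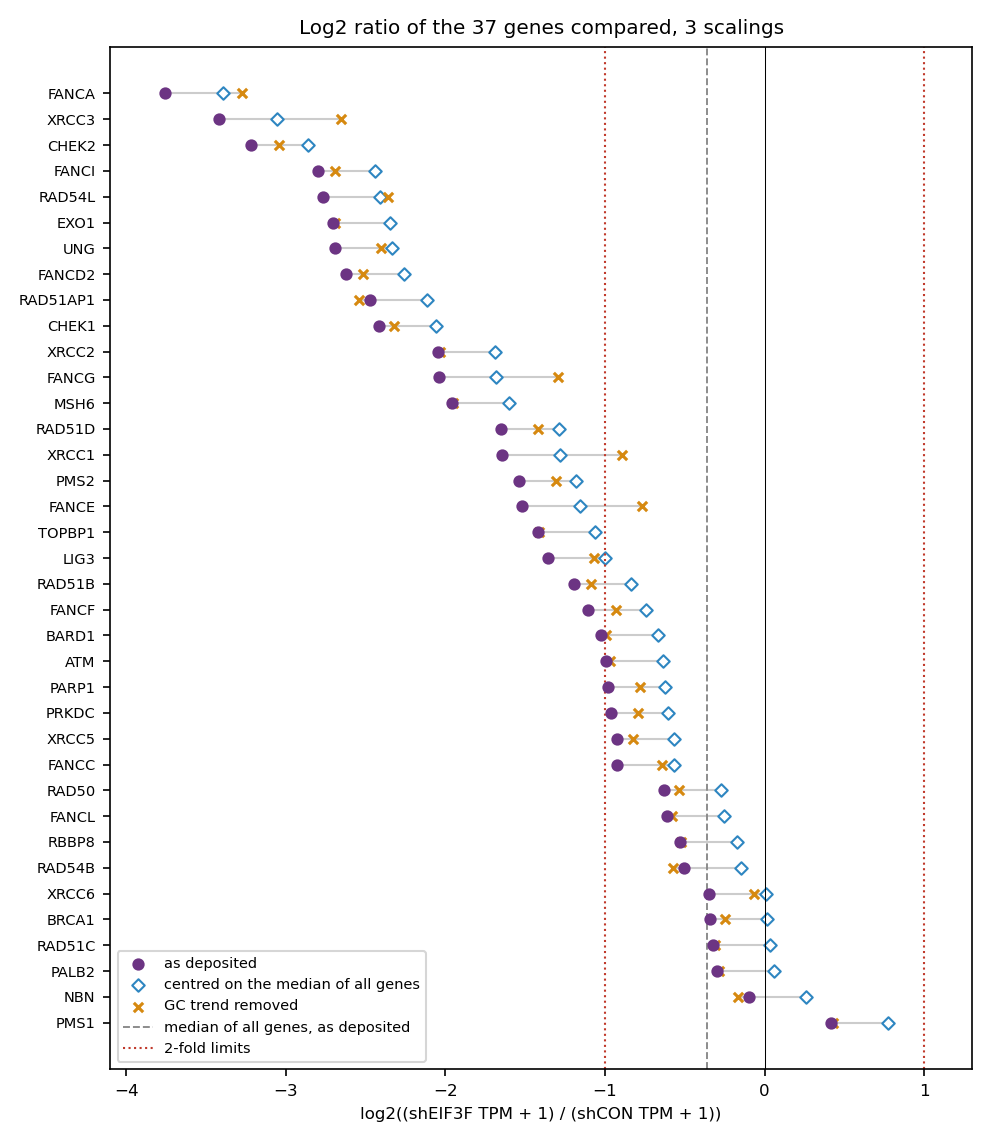
Log2 ratio of shEIF3F over shCON for the 37 genes compared, from lowest to highest, as deposited (filled points), centred on the median of all genes (diamonds) and with the GC trend removed (crosses). The dashed line is the median of all genes (-0.36) and the dotted lines are the 2-fold limits; FANCA stands lowest at -3.75 and PMS1 highest at 0.42.

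Among checkpoint genes, both effector kinases were among the lowest of the set and the upstream kinases were at 2.79 TPM or less in either library. CHEK2, the effector kinase of ATM, stood at 2.55 TPM in shEIF3F and 32.0 TPM in shCON (log2 ratio -3.22). CHEK1, the effector kinase of ATR, stood at 2.89 TPM in shEIF3F and 19.8 TPM in shCON (-2.42). CHEK2 therefore kept 7.97% of its control level and CHEK1 14.6%, and only 1.41% and 3.85% of all genes compared had ratios as low or lower. TOPBP1, the activator of ATR, had 0.91 TPM in shEIF3F and 4.12 TPM in shCON (-1.42). ATM, the kinase that responds to double-strand breaks, had 0.90 TPM in shEIF3F and 2.79 TPM in shCON, a log2 ratio of -0.996 that lies just inside the 2-fold limit. Without a pseudocount ATM kept 32.3% of its control level. With a pseudocount of 0.1 TPM its log2 ratio was -1.53, past the limit. ATR, which responds to single-stranded DNA at stalled forks, had 0.56 TPM in shEIF3F and 1.12 TPM in shCON. Of the 4 checkpoint genes compared, 3 were at least 2-fold lower (median log2 ratio -1.92). The call for TOPBP1 was lost with a pseudocount of 5 TPM (-0.63).

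The genes of the BRCA complexes were at 6.57 TPM or less in either library and, apart from BARD1, differed by less than 2-fold where they could be compared. BRCA1, a ubiquitin ligase subunit that promotes resection and recombinase loading, had 4.97 TPM in shEIF3F and 6.57 TPM in shCON (log2 ratio -0.34). Its obligate partner BARD1 had 0.53 TPM in shEIF3F and 2.11 TPM in shCON (-1.02). PALB2, which bridges BRCA1 and BRCA2, had 1.26 TPM in shEIF3F and 1.78 TPM in shCON (-0.30). The BRCA1-BARD1 heterodimer thus had its subunits on either side of the 2-fold limit, with BARD1 at 25.1% and BRCA1 at 75.6% of the control level. BRCA2, which delivers the recombinase to resected DNA, had 0.23 TPM in shEIF3F and 0.75 TPM in shCON, and the BRCA1-associated helicase BRIP1 had 0.06 and 0.66 TPM. After centring on the median of all genes BARD1 was within 2-fold (-0.67), and BRCA1 (0.02) and PALB2 (0.06) changed sign.

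Lower levels were the rule among the paralogs, partners and motors of the recombinase, where 6 of 8 genes were at least 2-fold lower (median log2 ratio -1.85). XRCC3, a paralog that works in a pair with RAD51C, had 1.89 TPM in shEIF3F and 29.8 TPM in shCON (-3.42). RAD51C itself, shared by both paralog complexes, had 23.9 TPM in shEIF3F and 30.2 TPM in shCON (-0.32). The pair was thus expressed at nearly equal levels in shCON, whereas in shEIF3F XRCC3 kept 6.33% and RAD51C 79.3% of the control level. XRCC2, a further paralog, had 0.12 TPM in shEIF3F and 3.62 TPM in shCON (-2.04). RAD51D, its direct partner, had 3.72 TPM in shEIF3F and 13.8 TPM in shCON (-1.65). RAD51B, which joins RAD51C, RAD51D and XRCC2 in the larger paralog complex, had 1.36 TPM in shEIF3F and 4.39 TPM in shCON (-1.19). The 3 genes of that complex other than RAD51C were all at least 2-fold lower, although RAD51B was within 2-fold after centring (-0.83), and XRCC2 (-0.75) and RAD51B (-0.56) were within 2-fold with a pseudocount of 5 TPM.

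The motors and the accessory factor of strand invasion also differed among themselves. RAD54L, the translocase that drives strand invasion and branch migration, had 0.78 TPM in shEIF3F and 11.1 TPM in shCON (-2.77). Its relative RAD54B had 1.24 TPM in shEIF3F and 2.18 TPM in shCON (-0.51). RAD51AP1, which binds the recombinase and stimulates joint formation, had 1.00 TPM in shEIF3F and 10.1 TPM in shCON (-2.47). RAD54L and RAD51AP1 thus kept 7.02% and 9.92% of their control levels, while RAD54B, the least abundant of the 8 genes in shCON, kept 56.9%.

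Among end resection genes compared, EXO1 was far lower and the other 3 were within 2-fold. EXO1, the exonuclease that extends resection and also excises mismatched strands, had 0.49 TPM in shEIF3F and 8.71 TPM in shCON (-2.70). RAD50, the ATPase of the nuclease complex that starts resection, had 1.39 TPM in shEIF3F and 2.70 TPM in shCON (-0.63). RBBP8, its activator, had 2.82 TPM in shEIF3F and 4.52 TPM in shCON (-0.53). The genes that begin resection were thus within 2-fold, and NBN, the subunit that recruits ATM, was nearly level at 1.71 TPM in shEIF3F and 1.90 TPM in shCON (-0.10, or 0.26 after centring). The RecQ helicase BLM, which acts in long-range resection and in dissolving joined strands, had 0.26 TPM in shEIF3F and 1.72 TPM in shCON (-1.11). With a mean of 0.99 TPM it was just under the level for comparison, and without that level it would be counted as lower.

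The Fanconi core genes compared ranged from -3.75 to -0.61 in log2 ratio. The lowest log2 ratio of all 45 genes was that of FANCA. FANCA, a core complex subunit, had 1.43 TPM in shEIF3F and 31.8 TPM in shCON (-3.75), 4.50% of the control level. FANCG, which binds FANCA directly, had 9.71 TPM in shEIF3F and 43.1 TPM in shCON (-2.04). These were the most abundant core subunits in shCON, and in shEIF3F FANCG stood far above FANCA. FANCE, the subunit that contacts FANCD2, had 1.52 TPM in shEIF3F and 6.21 TPM in shCON (-1.52). FANCF, an adaptor of the core, had 6.20 TPM in shEIF3F and 14.5 TPM in shCON (-1.10). FANCC, which pairs with FANCE and FANCF, had 7.51 TPM in shEIF3F and 15.2 TPM in shCON (-0.93). The subcomplex of FANCC, FANCE and FANCF thus lay around the 2-fold limit, and FANCE (-0.77) and FANCF (-0.93) came within it when the GC trend was removed, FANCF also after centring (-0.75). FANCL, the ubiquitin ligase subunit, had 3.17 TPM in shEIF3F and 5.37 TPM in shCON (-0.61). The remaining core genes were near the bottom of the scale, with FANCB at 0.03 TPM in shEIF3F and 0.17 TPM in shCON and the DNA translocase FANCM at 0.31 and 0.41 TPM. Of the 6 core genes compared, 4 were at least 2-fold lower (median log2 ratio -1.31).

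Both members of the pair that the core complex ubiquitinates were far lower in shEIF3F. FANCI had 2.44 TPM in shEIF3F and 22.9 TPM in shCON (-2.80). FANCD2 had 1.87 TPM in shEIF3F and 16.6 TPM in shCON (-2.62). The pair kept 10.6% and 11.2% of its control level, and its ratios stayed at -2.44 and -2.26 after centring.

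In mismatch repair, 2 of 3 genes compared were at least 2-fold lower and the other was the only gene of the 37 with a positive log2 ratio. MSH6, a subunit of the dimer that recognises base mismatches, had 1.36 TPM in shEIF3F and 8.18 TPM in shCON (-1.96). PMS2, the endonuclease subunit that nicks the new strand, had 3.19 TPM in shEIF3F and 11.2 TPM in shCON (-1.54). PMS1, a relative of PMS2 with a less defined role in repair, had 3.30 TPM in shEIF3F and 2.22 TPM in shCON (0.42). PMS1 and PMS2 were therefore at similar levels in shEIF3F and far apart in shCON. MSH3, which recognises larger loops, was hardly expressed at 0.05 TPM in shEIF3F and 0.15 TPM in shCON. The call for PMS2 was lost with a pseudocount of 5 TPM (-0.98).

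Base excision and single-strand break repair held 2 of the most abundant genes of the set, and 3 of its 4 genes were at least 2-fold lower (median log2 ratio -1.50). UNG, the glycosylase that removes uracil from DNA, had 20.3 TPM in shEIF3F and 137 TPM in shCON (-2.69). In TPM the difference between the libraries was larger for UNG than for any other of the 45 genes. XRCC1, the scaffold of single-strand break repair, had 7.36 TPM in shEIF3F and 25.1 TPM in shCON (-1.64). LIG3, the ligase that XRCC1 carries, had 7.01 TPM in shEIF3F and 19.5 TPM in shCON (-1.36). XRCC1 and LIG3 thus lay close together in both libraries. PARP1, the sensor that marks strand breaks with ADP-ribose and the target of PARP inhibitors, had 89.7 TPM in shEIF3F and 178 TPM in shCON (-0.98), just inside the 2-fold limit. XRCC1 came within 2-fold when the GC trend was removed (-0.89), and LIG3 when libraries were rescaled without the 100 most abundant genes (-0.96).

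As deposited, end joining was the role group in which no gene compared reached the 2-fold limit. After centring, or with the GC trend removed, 0 of 3 genes of the BRCA complexes reached it either. XRCC6, a subunit of the Ku ring that caps broken ends, was the most abundant of the 45 genes at 241 TPM in shEIF3F and 307 TPM in shCON (-0.35). Its partner XRCC5 had 31.0 TPM in shEIF3F and 59.8 TPM in shCON (-0.93). PRKDC, the kinase that Ku recruits, had 34.6 TPM in shEIF3F and 68.4 TPM in shCON (-0.96). XRCC5 and PRKDC thus stood close to 50% of the control level (51.8% and 50.6%), and XRCC6 at 78.5%, a ratio that centring brought to 0.01. LIG4, the ligase of the pathway, had 1.32 TPM in shEIF3F and 0.45 TPM in shCON, with a mean under 1 TPM. Whether end joining differed from the other role groups was not tested, since 1 library per group allows no such test.

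Some of these reads may belong to other genes, since no source used here says how they were counted or whether strand was used. In GENCODE release 29, 24 of the 45 genes have an exon that overlaps an exon of another gene on either strand. A named pseudogene exists for 8, which makes 29 genes in all. The overlap was with a gene on the same strand only for BRCA1, RAD51D, RAD54B, CHEK1, RAD50, RBBP8 and XRCC1. Of the overlapping genes given next, only STT3A is on the same strand as its repair gene. For XRCC3 the overlapping gene is KLC1 (8.45 TPM in shEIF3F, 44.0 TPM in shCON, log2 ratio -2.25), and for FANCI it is POLG (10.4 and 31.4 TPM, -1.50). CHEK1 overlaps STT3A (44.4 TPM in shEIF3F, 119.7 TPM in shCON, -1.41) and FANCA overlaps ZNF276 (6.87 and 13.8 TPM, -0.91). In RAD54L and MSH6 the overlapping gene had a ratio of the opposite sign, with LRRC41 at 37.4 TPM in shEIF3F and 28.5 TPM in shCON (0.38) and FBXO11 at 3.01 and 2.64 TPM (0.14). PMS2 has 11 named pseudogenes, among which PMS2P1 had 28.7 TPM in shEIF3F and 42.1 TPM in shCON, more than PMS2 itself in both libraries. The 4 CHEK2 pseudogenes were listed at 0 in both libraries. These partner genes were named after their values were seen. Of the 16 genes with neither kind of overlap 10 could be compared, and 6 of them (60.0%) were at least 2-fold lower with a median log2 ratio of -1.11, against 25.6% of all genes compared. After centring 4 of the 10 were lower (median -0.75, against 16.0% of all genes), and with the GC trend removed 4 were (-0.91, against 13.9%).

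Promoters were then examined for the whole set. RefSeq promoter windows were found for 40 of the 45 genes, and FANCI, RAD54B, NBN, XRCC5 and PRKDC had none. The GC content of the 40 windows ran from 32.3% (RAD51B) to 78.0% (MSH6). Promoters set beside them, here and for the motifs below, were not matched for GC content, and its part in the shares was not tested. An E2F match was present in 25 of the 40 (62.5%), against 13.1% of 27305 promoters in the table and 21.1% of the 9310 that belong to genes compared. Among repair genes at least 2-fold lower in shEIF3F it was present in 17 of 21 (81.0%), and among those within 2-fold in 5 of 11 (45.5%). Among all genes compared the shares were 25.0% of 2364 promoters of genes at least 2-fold lower and 19.7% of 6946 others. The 4 lower genes without a match were CHEK2, CHEK1, RAD51B and LIG3, and the 5 matched genes within 2-fold were FANCC, FANCL, PMS1, PARP1 and XRCC6.

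Other motifs were counted in the same windows. The core TGCGCA of the site for the factor NRF1 was present in 12 of the 40 promoters (30.0%), in 8.42% of all promoters and in 14.1% of those of genes compared. It was found in 3 of 21 repair genes at least 2-fold lower (14.3%), against 13.2% of all genes that were lower. It was found in 7 of 11 repair genes within 2-fold (63.6%), against 14.4% of all genes that were not lower, and these 7 were PALB2, RAD51C, PMS1, ATM, RAD50, FANCL and XRCC6. A CCAAT box was present in 18 of 40 (45%), in 35.7% of all promoters and in 37.1% of those of genes compared, with 5 copies in the XRCC3 window and 3 in that of CHEK2. The ETS motif CCGGAAG was present in 9 of 40 (22.5%), near the 20.2% of promoters of genes compared, and in 10.7% of all promoters. The cell cycle element searched as TTTGAA or TTCGAA, known as CHR, was present in 4 of 40 (10%), near the 10.1% of promoters of genes compared, and in 16.6% of all promoters. Both strands were searched for each of the 5 motifs. E2F and CCAAT matches shared bases in 2 of the 25 promoters with an E2F match, those of PMS1 and UNG. A match is a run of letters and not a measured binding site, and the motifs were chosen with the expression values known.

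Several repair genes share a promoter region with a gene that is read in the opposite direction. In GENCODE release 29, 13 of the 45 genes start within 1000 bases of such a divergent neighbour, in 14 pairs. In 7 pairs both genes could be compared. XRCC3 (-3.42) lies beside ZFYVE21, an endosomal protein gene with 23.6 TPM in shEIF3F and 25.6 TPM in shCON (-0.12). PMS2 (-1.54) lies beside AIMP2, a scaffold of the tRNA synthetase complex with 161 TPM in shEIF3F and 156 TPM in shCON (0.05). In both pairs the repair gene was lower and the neighbour was level. BRCA1 (-0.34) lies beside the autophagy receptor gene NBR1, with 23.8 TPM in shEIF3F and 15.2 TPM in shCON (0.61). PALB2 (-0.30) lies beside the dynactin subunit gene DCTN5, with 18.5 TPM in shEIF3F and 14.1 TPM in shCON (0.37). XRCC6 (-0.35) lies beside DESI1, with 32.9 TPM in shEIF3F and 33.6 TPM in shCON (-0.03). Both genes were within 2-fold in these 3 pairs.

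In 1 pair both genes were lower, RAD51AP1 (-2.47) and C12orf4, with 0.43 TPM in shEIF3F and 2.71 TPM in shCON (-1.38). In 1 pair the neighbour was the lower gene: PRKDC (-0.96) lies beside MCM4, a subunit of the replicative helicase with 63.0 TPM in shEIF3F and 315 TPM in shCON (-2.30). The repair gene had the lower ratio in 6 of these 7 pairs, with medians of -0.96 for the repair genes and -0.03 for the neighbours. FANCM, too low to be compared, lies beside FKBP3, with 27.8 TPM in shEIF3F and 20.6 TPM in shCON (0.42). Where annotated genes overlap at their starts reads may be shared between them. CHEK2 (-3.22) so overlaps HSCB, an iron-sulfur cluster cochaperone gene with 21.0 TPM in shEIF3F and 40.7 TPM in shCON (-0.92), and FANCF (-1.10) overlaps GAS2 with 8.19 and 4.11 TPM (0.85). PMS1 (0.42) overlaps ORMDL1 with 18.8 TPM in shEIF3F and 12.3 TPM in shCON (0.57).

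**Figure D4:**
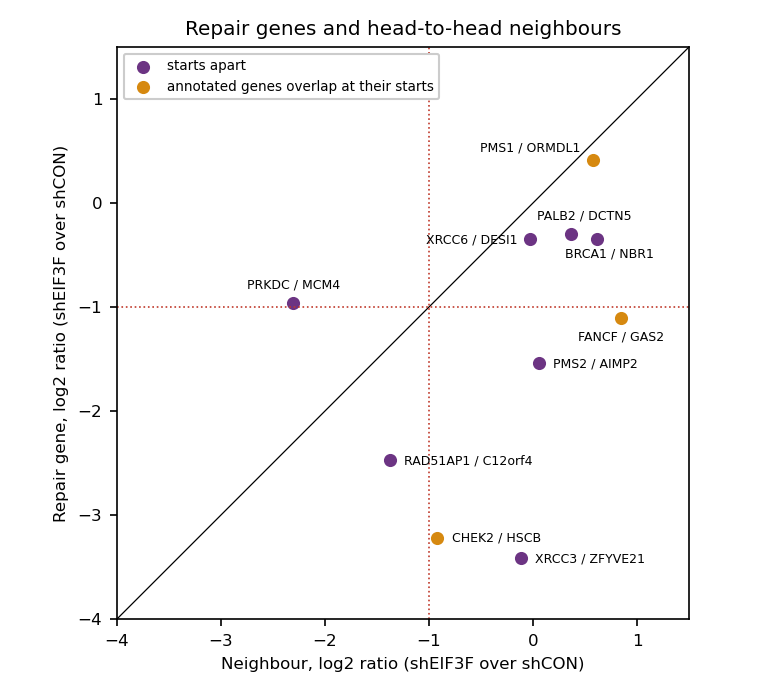
Log2 ratio of each repair gene (vertical axis) against that of its head-to-head neighbour (horizontal axis), shEIF3F over shCON, for the 10 pairs in which both genes were compared, with purple for divergent genes and orange for genes that overlap at their starts. Points below the diagonal have a lower ratio in the repair gene, and only PRKDC with MCM4 lies above it.

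The other genes of the same pathways, 122 listed by role, were set beside the 45. Of 109 that could be compared 38 (34.9%) were at least 2-fold lower and 1 was at least 2-fold higher, with a median log2 ratio of -0.76, against 25.6% lower and 8.44% higher among all genes compared. After centring 28 of the 109 were lower and 6 higher (median -0.40), and with the GC trend removed 30 were lower and 4 higher. In homologous recombination 8 of 21 were lower, including the helicase gene RECQL4 at 10.2 TPM in shEIF3F and 110.5 TPM in shCON (-3.32) and the nuclease subunit gene EME1 at 1.03 and 17.5 TPM (-3.19). DMC1, the meiotic recombinase, counted among the 8, was listed at 0 in shEIF3F and at 14.4 TPM in shCON. In the Fanconi pathway 4 of 9 were lower, among them UBE2T, the conjugating enzyme that serves FANCL, at 36.3 TPM in shEIF3F and 182 TPM in shCON (-2.29). The FANCM partners CENPX (42.1 TPM in shEIF3F and 348 TPM in shCON, -3.02), CENPS (14.5 and 36.9 TPM, -1.29) and FAAP24 (0.84 and 4.76 TPM, -1.65) were the other 3, although CENPS was within 2-fold after centring (-0.93). The other 5 of these 9 genes were within 2-fold, with log2 ratios from -0.94 to -0.22, among them the core complex partners FAAP20 (-0.78) and FAAP100 (-0.53), named after their values were seen.

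Checkpoint and damage signalling genes outside the 45 were lower in 11 of 18 cases (median log2 ratio -1.54). H2AX (listed as H2AFX), the histone phosphorylated around breaks, had 6.93 TPM in shEIF3F and 220 TPM in shCON (-4.80), and MDC1, which reads that mark, had 7.73 and 100.4 TPM (-3.54). PLK1, the mitotic kinase that ends checkpoint arrest, had 2.02 TPM in shEIF3F and 94.8 TPM in shCON (-4.99), and the fork protection gene TIMELESS had 2.07 and 34.5 TPM (-3.53). In base excision repair 9 of 18 were lower, including the flap nuclease FEN1 (5.54 TPM in shEIF3F and 92.0 TPM in shCON, -3.83), TDP1 (2.27 and 21.2 TPM, -2.76), LIG1 (7.36 and 54.5 TPM, -2.73) and PARP2 (1.77 and 13.8 TPM, -2.42). After centring 6 of these 18 were lower and 2 higher, the apurinic endonuclease gene APEX1 (506 TPM in shEIF3F and 277 TPM in shCON, 0.87, or 1.22 centred) and PARP3 (16.4 and 7.70 TPM, 0.997, or 1.35 centred), both named after their values were seen. PARP2 thus lay beyond the 2-fold limit and its abundant relative PARP1 within it. In end joining 3 of 8 were lower, including MAD2L2 (26.0 TPM in shEIF3F and 131 TPM in shCON, -2.29), which blocks resection, and PAXX (21.3 and 103 TPM, -2.22), which binds Ku, while the polymerase gene POLL had 20.8 and 15.9 TPM (0.37). In mismatch repair 1 of 4 was lower, the meiotic gene MSH5 at 4.25 TPM in shEIF3F and 12.9 TPM in shCON (-1.41).

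Genes of nucleotide excision repair and of translesion synthesis lay nearer to the median of all genes. In nucleotide excision repair 2 of 20 genes were at least 2-fold lower, the TFIIH subunits GTF2H4 (18.5 TPM in shEIF3F and 43.2 TPM in shCON, -1.18) and GTF2H3 (12.2 and 28.3 TPM, -1.15). The small TFIIH subunit GTF2H5 was higher at 7.57 TPM in shEIF3F, against 3.05 TPM in shCON (1.08). The median log2 ratio of these 20 genes was -0.40, and after centring 0 were lower and 2 higher. In translesion synthesis and direct reversal 0 of 11 genes passed 2-fold in either direction (median log2 ratio -0.42), and the furthest were the ubiquitin ligase genes HLTF (-0.95) and RAD18 (-0.95), and the direct reversal genes ALKBH2 (-0.94) and MGMT (-0.64). With the GC trend removed 1 of those 11 was at least 2-fold lower.

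**Figure D5:**
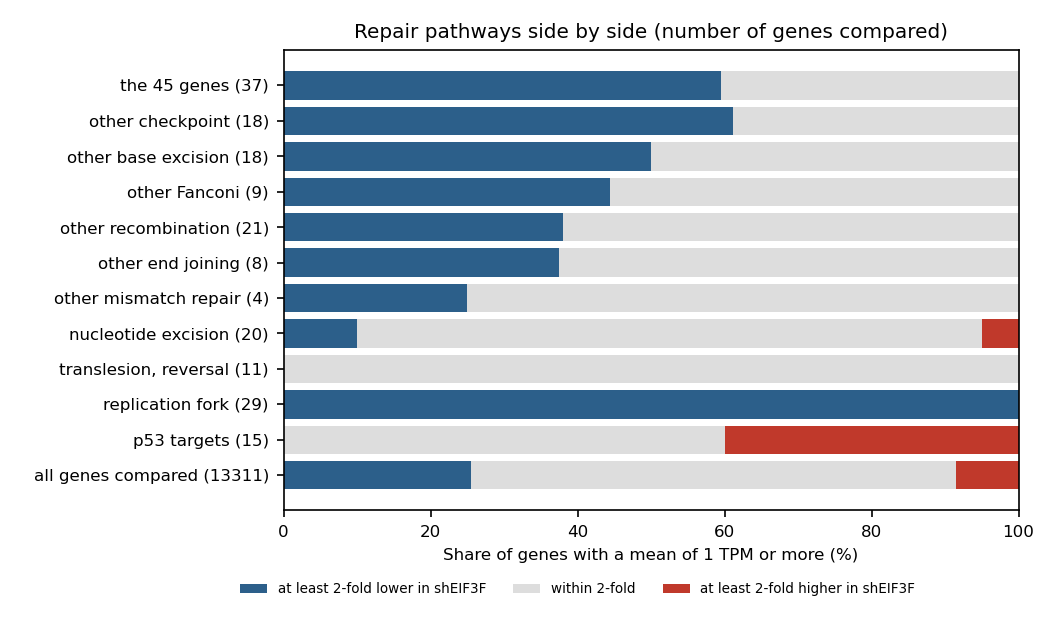
Share of the genes compared in each list that were at least 2-fold lower in shEIF3F (blue), within 2-fold (grey) or at least 2-fold higher in shEIF3F (red), with the number of genes compared in parentheses. Of the 45 genes 37 were compared, with 59.5% lower. Other checkpoint genes are at 61.1% lower and the replication fork at 100%. Nucleotide excision repair is at 10%, translesion and direct reversal and the p53 targets are at 0%, and all genes compared are at 25.6%.

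Levels of cell cycle genes moved with those of the repair genes. All 29 genes of replication licensing and the fork were at least 2-fold lower in shEIF3F (27 after centring), with a median log2 ratio of -2.66. They summed to 338 TPM in shEIF3F and 2203 TPM in shCON, and the lowest were CDC45 (1.56 and 56.3 TPM, -4.49), GINS4 (0.61 and 33.8 TPM, -4.43), GINS2 (0.24 and 19.2 TPM, -4.03) and MCM2 (8.53 and 149 TPM, -3.97). All 8 proliferation markers were lower (median log2 ratio -4.32), summing to 37.5 TPM in shEIF3F and 602 TPM in shCON, with BIRC5 at -5.78, AURKB at -4.85, RRM2 at -4.82 and CCNB1 at -4.80. The repair genes, with a median of -1.36, were lower than all genes by less than these lists were. Among regulators that act with E2F, 6 of 12 were lower and 1 was higher, with MYBL2 at 1.25 TPM in shEIF3F and 58.9 TPM in shCON (-4.74), E2F1 at 1.97 and 46.8 TPM (-4.01), FOXM1 at 2.55 and 55.6 TPM (-3.99) and E2F2 at 0.20 and 14.7 TPM (-3.71). The higher one was E2F5, at 21.0 TPM in shEIF3F and 4.99 TPM in shCON (1.88), named after its value was seen. Among 15 targets of p53, 6 were at least 2-fold higher and 0 lower, against 8.44% higher and 25.6% lower among all genes compared. The cell cycle inhibitor CDKN1A had 989 TPM in shEIF3F and 90.5 TPM in shCON (3.44), and GDF15 had 230 and 25.9 TPM (3.10). SESN1 stood at 16.5 and 2.99 TPM (2.13) and MDM2 at 44.5 and 13.7 TPM (1.63). The log2 ratio was negative in 4 of the 15, named after their values were seen: FDXR (-0.71), XPC (-0.61), DDB2 (-0.61) and POLH (-0.26).

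Of the 45 genes, 5 (UNG, RAD51AP1, EXO1, BLM and BRIP1) belong to a published list of S phase genes. The 3 of these that could be compared were all at least 2-fold lower (median log2 ratio -2.69). Among the 34 compared genes outside that list 19 (55.9%) were at least 2-fold lower, with a median of -1.15. Of all genes compared 25.6% were lower, with a median of -0.36. After centring 16 of the 34 (47.1%) were lower, against 16.0% of all genes. With the GC trend removed 15 (44.1%) were, against 13.9%. The part of the lower proliferation markers in the levels of the repair genes was not tested, and with 1 library per group a change in cell cycle phase and a change in these transcripts within a phase cannot be told apart.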

How the data were processed

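Total RNA of 22Rv1 cells was sequenced in 1 shEIF3F and 1 shCON library, extracted with Trizol and prepared with an Illumina TruSeq RNA kit, per the labels' protocols. The deposited table holds TPM for every gene in each library, given by the authors to 2 decimals. CASAVA, HISAT2 and the build hg19 are named, without versions or roles, per the submitters' processing notes. How reads were counted, with which annotation, strand setting or filter, is not given in the sources used here.

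Its 58884 entries cover 57351 symbols. Entries with the same symbol (1533 repeats) were summed, 27 entries turned into dates by spreadsheet software were left out, and so were small RNA genes. GENCODE release 29 gave gene types, exon overlap, neighbours, and the GC content and length of the longest transcript. It describes GRCh38, so its coordinates are not printed. Promoters came from RefSeq on GRCh38.p14.

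The log2 ratio used a pseudocount of 1 TPM, genes were compared when their mean reached 1 TPM, and a fixed limit of 2-fold was applied. It is a rule of size and not a test. Ratios were also centred on the median of all genes, or within 20 bins of transcript GC content or length. Named were the 45 genes, up to 4 genes of each other list with the largest absolute ratio, cell type markers, and neighbours with a mean of 1 TPM or more. Some genes covered by this rule are not reported here. The genes, lists and motifs were chosen with earlier results of these data known. Calculations used Python 3.11.15, NumPy 2.4.6, pandas 2.3.3 and matplotlib 3.10.9, and were checked on simulated data.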

Additional observations from a re-analysis of the deposited data

How the results depend on the processing

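Of the 22 genes at least 2-fold lower, 13 passed that limit in each of 10 alternatives in which they could be compared, and 0 genes were at least 2-fold higher in any of them. The number lower was 24 with a pseudocount of 0.1 TPM and 15 with one of 5 TPM, 19 of 37 after centring, 18 with libraries rescaled without the 100 most abundant genes, 18 with the GC trend removed and 19 with the length trend removed. The median log2 ratio came within 2-fold with a pseudocount of 5 TPM (-0.85), with rescaled libraries (-0.96) and with the GC trend removed (-0.99), and the cause was not tested. No median or count reversed. The ratios of BRCA1, PALB2, RAD51C, XRCC6 and NBN changed sign in at least 1 alternative, each within 2-fold. The restriction to 16 genes without overlaps was chosen after seeing the data. TPM without counts and 1 library per group limit every value, most of all those under 1 TPM. No paired analysis was possible because each group had 1 library.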
